A study of Mus musculus with 6 samples.

Results

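The 9 genes described here encode enzymes that build triglyceride in the liver: Gpam, Agpat2, Agpat3, Lpin1, Lpin2, Lpin3, Mogat1, Dgat1 and Dgat2. They were taken by symbol from the 34745 genes of the deposited table, and all 9 were found. RNA was sequenced from the liver of 12-week-old C57BL/6 mice 48 h after PHx (partial hepatectomy, an operation that takes out part of the liver). The HKO group (3 libraries) is labelled Sox9HKO and the WT group (3 libraries) Sox9f/f, so both names refer to the gene Sox9. The labels give liver as the tissue and hepatocyte as the cell type, and the series title speaks of primary hepatocytes. They name no Cre line or promoter and do not tell how many mice the libraries stand for, so the p-values below measure only the spread between these libraries.

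Triglyceride is assembled on a glycerol backbone in a fixed order of steps. Gpam and its relatives add the first acyl chain to glycerol 3-phosphate, the Agpat enzymes add another and give phosphatidate, the lipins remove the phosphate to give diacylglycerol, and Dgat1 or Dgat2 add the last chain. Mogat1 reaches diacylglycerol by a separate route, from monoacylglycerol. Diacylglycerol and phosphatidate also feed phospholipid synthesis, and a liver that regrows after partial hepatectomy is known to store triglyceride for a time.

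The libraries held 16659778 to 21168233 counts. Levels are given as CPM (counts relative to the library total, with TMM scaling) and differences as the log2 fold change of HKO minus WT, with its standard error (SE). A gene was called higher or lower when its adjusted p was below 0.05 in edgeR's quasi-likelihood test over the 12556 genes that passed the filter on low counts. Sox9, the gene named in the labels, was at 6.34, 4.30 and 4.78 CPM in HKO 1, 2 and 3 and at 6.94, 13.7 and 11.3 CPM in WT 1, 2 and 3 (log2 fold change -1.05, SE 0.27, adjusted p = 0.0284). Its call was lost without HKO 2, HKO 3, WT 2 or WT 3 (adjusted p 0.0503, 0.0862, 0.0929 and 0.0975). HKO 2 stood apart: 25.9% of its counts came from the 13 mitochondrial genes, against 12.1% to 16.3% elsewhere, and its summed endothelial and stellate cell markers were at 581 and 621 CPM, against at most 218 and 178 in any other library. In both lists every HKO sum lay above every WT sum. Endothelial sums were 182 to 581 CPM in HKO and 120 to 173 in WT, and stellate sums 161 to 621 and 105 to 152. The median log2 fold changes of their tested markers were 1.16 and 1.19. The 12 macrophage markers were all called higher, with sums of 282 to 441 CPM in HKO and 192 to 203 in WT. The 9 hepatocyte markers found summed to 73734 to 74725 CPM in HKO and 79215 to 95715 in WT. Alb made up most of each sum, at 49761 to 53180 CPM in HKO and 61219 to 77671 in WT. It was not called (adjusted p = 0.219). Of the 9 markers, 4 were called higher and 1 lower, with a median log2 fold change of 0.45. B and plasma cell markers summed to 20.2 to 27.4 CPM in HKO and 1.11 to 2.36 in WT, and bile duct markers, Sox9 among them, to 35.0 to 58.5 and 65.3 to 171. The part of these marker differences in the results below was not tested.

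Of the 9 genes, 8 passed the filter, 4 were called higher in HKO (Agpat3, Lpin1, Lpin2 and Dgat2) and 0 were called lower. Of all tested genes, 12.1% were called higher, 11.2% lower and 23.2% in either direction. At an unadjusted p below 0.05, 0 of the 8 genes tested by edgeR were lower. The same held for 0 of the 9 genes by edgeR without the filter and by DESeq2. The share of all tested genes that were lower at this unadjusted threshold was not computed. Every HKO library lay above every WT library in 4 of the 8 tested genes, the ones called higher. This was so for 22.6% of all tested genes. Groups that did not overlap in either direction made up 44.2% of them. The median log2 fold change of the 8 tested genes was 0.27, against 0.02 over all tested genes. Without HKO 2 the same 4 genes were called, at log2 fold changes of 0.39 (Agpat3), 2.42 (Lpin1), 1.59 (Lpin2) and 0.59 (Dgat2). In such bulk libraries, fewer cells of a type and less RNA per cell cannot be told apart.

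**Figure D1:**
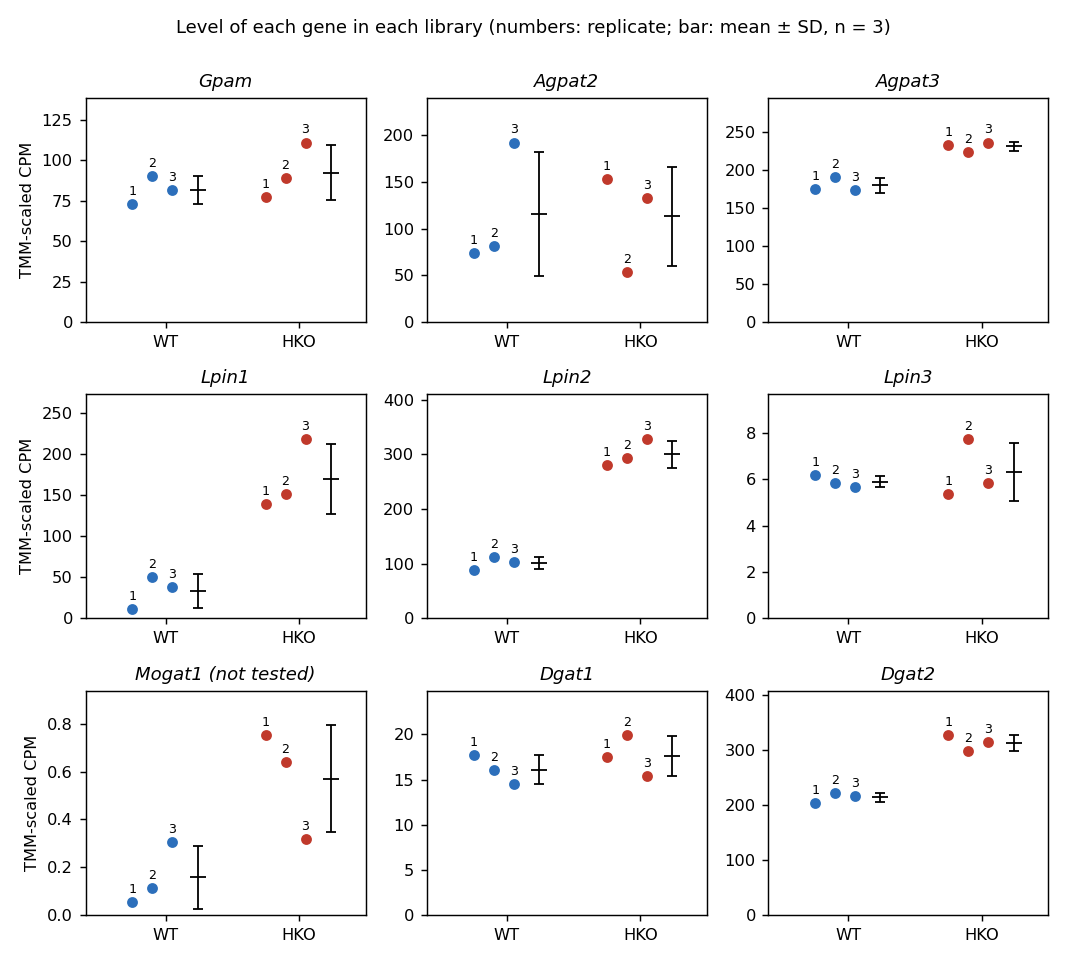
TMM-scaled CPM (vertical axes, from 0) of the 9 genes in each library, WT in blue and HKO in red, with the replicate number above each point and the mean ± SD of each group as a black bar (n = 3). Agpat3, Lpin1, Lpin2, Dgat2 and, at the lowest level, Mogat1 do not overlap between groups, and Agpat2 spans 53.3 to 192 CPM without separating them.

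Lpin1 showed the largest difference of the 8 tested genes. Lipin 1 is a phosphatidate phosphatase that also acts in the nucleus as a coactivator of fatty acid oxidation genes, and its hepatic mRNA is known to rise on fasting. Lpin1 (ENSMUSG00000020593, GRCm38 chr12:16535669-16589770, minus strand) was at 139, 152 and 218 CPM in HKO 1, 2 and 3 and at 11.0, 50.4 and 38.8 CPM in WT 1, 2 and 3. WT 1 was the lowest library, and the lowest HKO library still lay above the highest WT library. The mean was 169.6 ± 42.7 CPM in HKO and 33.4 ± 20.3 in WT (SD, n = 3), 5.08-fold higher in HKO on a log2 difference of 2.34 (SE 0.48, adjusted p = 0.0122). This was the 92nd largest increase among the tested genes. The difference was smallest without WT 1, at 1.91, and the call held in each of the 11 refits, with adjusted p from 0.00186 to 0.0492.

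Lpin2 rose more evenly. Lipin 2 is a phosphatidate phosphatase that is abundant in liver. Lpin2 (ENSMUSG00000024052, chr17:71182560-71249817, plus strand) was at 280.5, 293 and 328 CPM in HKO 1, 2 and 3 and at 89.1, 112 and 102 CPM in WT 1, 2 and 3. All 3 HKO libraries were well above the WT libraries, and within each group the values lay close together. The log2 fold change was 1.57 (SE 0.12, adjusted p = 0.000298), or 2.97-fold, and by p-value it ranked 49th of 12556 genes, against 1341st for Lpin1.

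Lpin3 was the lowest of the lipin genes and did not pass the test. Lpin3 (ENSMUSG00000027412, chr2:160880670-160906002, plus strand) encodes the third phosphatase of the family. It was at 5.37, 7.73 and 5.83 CPM in HKO 1, 2 and 3 and at 6.17, 5.84 and 5.67 CPM in WT 1, 2 and 3. The groups overlapped, and HKO 2 was the highest library. The log2 fold change of 0.10 (SE 0.19, adjusted p = 0.741) had a 95% interval of -0.42 to 0.61, which lies below the intervals of Lpin1 (1.01 to 3.68) and Lpin2 (1.24 to 1.90). The differences between these folds were not tested. Without HKO 2 the sign of Lpin3 turned (-0.071).

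The upstream sequences of the lipin genes are shown because these genes are close relatives whose levels differed in different degree between the groups. They are the 250 bases before RefSeq start sites on GRCm38.p6, read 5′ to 3′ on the gene's strand, with motif matches in capitals. Lpin1 has 1 window in the table, at chr12:16610967-16611216 on the minus strand, Lpin2 has 3, of which the first (chr17:71183282-71183531) and the third (chr17:71204404-71204653) held a match, and the first of 2 Lpin3 windows (chr2:160880420-160880669) held one.
Lpin1: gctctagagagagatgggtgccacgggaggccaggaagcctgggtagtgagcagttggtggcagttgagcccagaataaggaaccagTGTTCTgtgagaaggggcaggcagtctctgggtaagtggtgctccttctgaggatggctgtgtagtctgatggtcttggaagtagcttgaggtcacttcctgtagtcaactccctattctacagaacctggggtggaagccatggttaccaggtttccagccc
Lpin2 window 1: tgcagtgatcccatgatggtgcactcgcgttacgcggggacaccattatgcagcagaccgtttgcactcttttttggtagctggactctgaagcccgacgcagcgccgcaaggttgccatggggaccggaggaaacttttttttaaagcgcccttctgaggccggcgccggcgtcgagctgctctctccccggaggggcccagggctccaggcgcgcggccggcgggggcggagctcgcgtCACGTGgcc
Lpin2 window 3: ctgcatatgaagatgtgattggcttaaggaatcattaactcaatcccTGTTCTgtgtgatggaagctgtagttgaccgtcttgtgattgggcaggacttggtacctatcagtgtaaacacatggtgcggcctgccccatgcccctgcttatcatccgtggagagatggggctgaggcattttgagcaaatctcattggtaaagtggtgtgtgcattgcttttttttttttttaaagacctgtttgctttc
Lpin3 window 1: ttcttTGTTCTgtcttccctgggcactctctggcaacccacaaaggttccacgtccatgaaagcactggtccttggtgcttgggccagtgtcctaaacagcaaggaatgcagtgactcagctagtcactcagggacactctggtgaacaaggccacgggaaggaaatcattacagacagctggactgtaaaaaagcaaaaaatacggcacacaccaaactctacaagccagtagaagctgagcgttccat
The 5 motifs were searched on both strands in the 11 windows found for 7 of the 9 genes. The 6-base glucocorticoid receptor motif AGAACA, which reads TGTTCT on the other strand, lay at -163 to -158 from the Lpin1 start, at -203 to -198 from the third Lpin2 start and at -245 to -240 from the first Lpin3 start. The E-box CACGTG lay at -9 to -4 from the first Lpin2 start. AGAACA occurs in 16.1% of the 32851 windows of the table and CACGTG in 6.02%. The palindromic glucocorticoid response element (0.00913% of windows, a motif that contains the 6-base one), the cyclic AMP element TGACGTCA (1.55%) and the direct repeat bound by PPAR and RXR (0.0335%) matched none of the 11 windows, as letters only. The RefSeq start of Lpin1 lies 21196 bases upstream of the start in the deposited table, so the gene model of that table does not reach this window. Lpin2 starts at 71182560 in the deposited table, so both printed Lpin2 windows lie inside its gene model there. The first Lpin3 window ends directly before the deposited start of that gene (160880670).

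Levels of different genes can be set side by side only per length, and here the length decides the order of the lipins. On the deposited FPKM scale (fragments relative to gene length and to the library total), Lpin1 made up 57.7%, 58.3% and 64.8% of the summed lipin level in HKO 1, 2 and 3 and 22.9%, 53.1% and 48.6% in WT 1, 2 and 3. Every HKO share lay above every WT share, with WT 1 far below the other WT libraries. The deposited FPKM rests on a length of 16737 bases for Lpin2, equal to the sum of all its distinct GENCODE M21 exon records, in which overlapping exons count repeatedly, and on 5725 bases for Lpin1. The longest annotated transcripts have 5640 and 5581 bases. With these as lengths, Lpin2 was the leading lipin in each library (58.8% to 65.3% in HKO and 65.0% to 80.8% in WT) and Lpin1 held 35.2% ± 3.76 in HKO and 21.9% ± 10.4 in WT (SD, n = 3).

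What does not depend on the length is the change of the ratio between groups. The log2 ratio of Lpin1 to Lpin2 was higher by 1.01 in HKO under each of the lengths tried, with all HKO libraries above all WT libraries. The WT mean rests on WT 1: on the FPKM scale the ratios were -1.47, 0.40 and 0.15, with a mean of -0.31 that became 0.27 without WT 1. The share of Lpin3 was 2.47% ± 0.67 in HKO and 9.27% ± 3.86 in WT, with the groups apart under each length. The summed lipin level was 43.1, 42.5 and 61.0 FPKM in HKO 1, 2 and 3 and 8.87, 15.96 and 13.7 in WT 1, 2 and 3, a ratio of means of 3.80, or 3.36 with the longest transcripts.

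**Figure D2:**
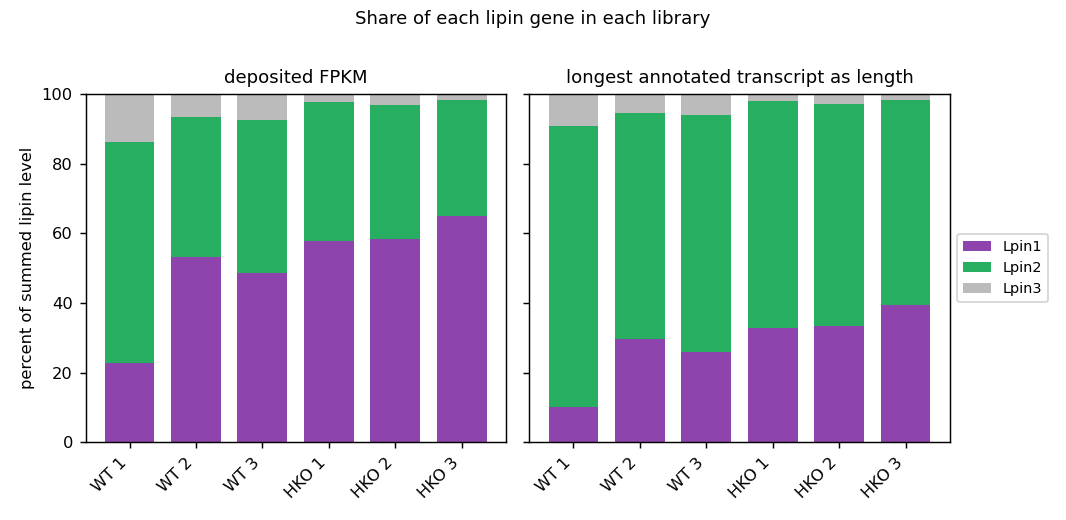
Percent of the summed lipin level (vertical axis) held by Lpin1, Lpin2 and Lpin3 in each library (horizontal axis), from the deposited FPKM on the left and with the longest annotated transcript as length on the right. Lpin1 holds a larger share in each HKO library than in any WT library on both sides, while the leading gene in HKO is Lpin1 on the left and Lpin2 on the right.

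At the last step, Dgat2 was higher and Dgat1 was not called. Both join the third acyl chain to diacylglycerol, and they are unrelated in sequence. Dgat2 (ENSMUSG00000030747, chr7:99153663-99182713, minus strand) was at 326, 297 and 314 CPM in HKO 1, 2 and 3 and at 203, 221 and 216 CPM in WT 1, 2 and 3. The groups were well apart, and the spread within each was narrow. The log2 fold change was 0.55 (SE 0.09, adjusted p = 0.00523), or 1.46-fold, and the call held in each of the 11 refits (adjusted p up to 0.0370).

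Dgat1 (ENSMUSG00000022555, chr15:76502015-76511951, minus strand) was at 17.5, 19.9 and 15.4 CPM in HKO 1, 2 and 3 and at 17.8, 16.0 and 14.5 CPM in WT 1, 2 and 3. The groups overlapped, and the log2 fold change of 0.13 (SE 0.14, adjusted p = 0.531) had a 95% interval of -0.25 to 0.51. That interval does not hold the Dgat2 estimate, but overlaps the Dgat2 interval of 0.30 to 0.80, and the difference between these 2 folds was not tested. In deposited FPKM, Dgat2 stood 36.4 to 49.6 times above Dgat1 in HKO and 27.9 to 36.2 times in WT. With the longest transcripts the same ratios were 12.5 to 17.0 and 9.55 to 12.4, so Dgat2 led at this step in all 6 libraries under either length. The summed level of this step was 142 ± 13.5 FPKM in HKO and 97.6 ± 1.14 in WT (SD, n = 3).

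The first 2 acylations differed from gene to gene. Gpam encodes the mitochondrial glycerol 3-phosphate acyltransferase, which commits fatty acids to glycerolipid synthesis. Gpam (ENSMUSG00000024978, chr19:55069734-55099451, minus strand) was at 77.0, 89.0 and 111 CPM in HKO 1, 2 and 3 and at 73.2, 90.4 and 81.5 CPM in WT 1, 2 and 3. The groups overlapped, with HKO 3 highest, and the log2 fold change was 0.18 (SE 0.15, adjusted p = 0.423, 95% interval -0.24 to 0.59).

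Its relative in the endoplasmic reticulum, Gpat4, did rise. It was at 263, 198 and 263 CPM in HKO 1, 2 and 3 and at 125, 111 and 109 CPM in WT 1, 2 and 3 (log2 fold change 1.07, SE 0.13, adjusted p = 0.00172). Every HKO library lay above every WT library. Of the FPKM summed over Gpam, Gpat2, Gpat3 and Gpat4, Gpam held 27.1% ± 4.24 in HKO and 40.7% ± 3.90 in WT, while the sum rose from 52.3 ± 2.77 to 89.4 ± 15.7 FPKM (SD, n = 3). Gpat4 held the largest share of this step in all 6 libraries, also with the longest transcripts as lengths.

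Agpat3 rose slightly and with very little spread. It encodes an acyltransferase for lysophosphatidate and other lysophospholipids. Agpat3 (ENSMUSG00000001211, chr10:78269178-78352489, minus strand) was at 234, 225 and 237 CPM in HKO 1, 2 and 3 and at 175, 191.5 and 174 CPM in WT 1, 2 and 3. The groups did not overlap, and the log2 fold change was 0.36 (SE 0.09, adjusted p = 0.0230), or 1.29-fold. The call was lost without HKO 1, HKO 3, WT 1 or WT 3 (adjusted p 0.0604, 0.0736, 0.0634 and 0.112), while the log2 fold change stayed between 0.33 and 0.41.

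Agpat2, the acyltransferase whose loss causes lipodystrophy, varied within the groups and not between them. Agpat2 (ENSMUSG00000026922, chr2:26593057-26604417, minus strand) was at 153, 53.3 and 133 CPM in HKO 1, 2 and 3 and at 73.6, 81.3 and 192 CPM in WT 1, 2 and 3. HKO 2 was lowest and WT 3 highest, and the group ranges overlapped. The log2 fold change was -0.03 (SE 0.46, adjusted p = 0.970) with a 95% interval of -1.31 to 1.25, and it turned to 0.31 without HKO 2 and to 0.55 without WT 3. Exons of Agpat2 share 64 bases (3.00% of its exon length) with Egfl7, an endothelial gene on the opposite strand, and no strand marking is described.

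Mogat1 was near the limit of detection. The gene encodes a monoacylglycerol acyltransferase that is scarce in normal mouse liver and rises in fatty liver. Mogat1 (ENSMUSG00000012187, chr1:78510991-78538173, plus strand) had 14, 11 and 7 counts in HKO 1, 2 and 3 and 1, 2 and 5 counts in WT 1, 2 and 3, and did not pass the filter. All HKO libraries lay above all WT libraries, though HKO 3 (0.319 CPM) was close to WT 3 (0.305 CPM). The summed counts of 32 and 8 gave a scaled ratio of 3.61, with a 95% interval of 1.63 to 9.08 that covers counting error only. In the fit without the filter its log2 fold change was 1.82 (SE 0.76, adjusted p = 0.146). Its exons share 200 bases (12.8%) with BC035947 on the opposite strand.

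**Figure D3:**
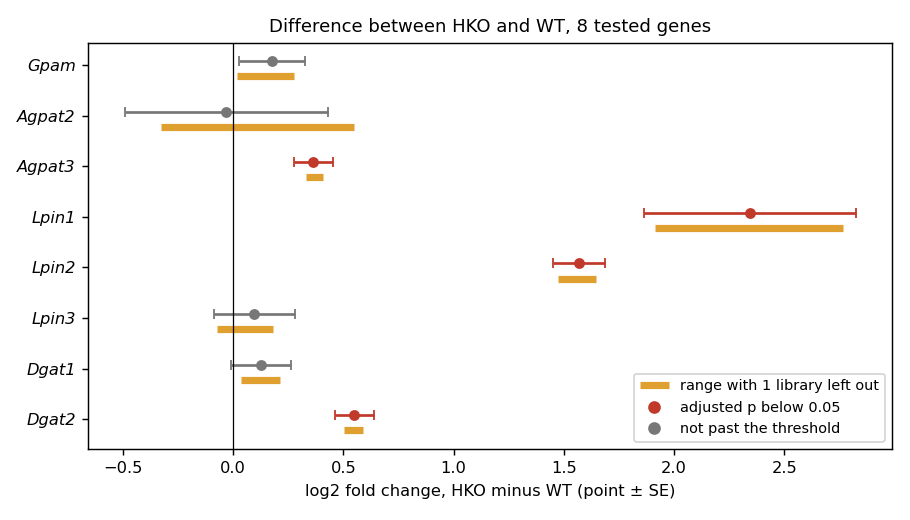
Log2 fold change of HKO minus WT (horizontal axis, point ± SE) for the 8 tested genes, red where the adjusted p was below 0.05, with the range over the 6 fits that leave out 1 library as an orange bar. The bars of Lpin1, Lpin2, Dgat2 and Agpat3 stay above 0, and those of Agpat2 and Lpin3 cross it.

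The 8 tested genes differed in their spread within groups. The SD of log2 CPM within groups was 0.86 for Lpin1 and 0.79 for Agpat2, at the 96.6th and 95.2th percentile of all tested genes. Among genes within 1 log2 unit of their mean level, these were the 99.6th and 99.4th percentile. Agpat3 and Dgat2 were at the other end, both at 0.06 and at the 2.76th and 3.24th percentile. So a difference of 0.36 passed the test for Agpat3, while for Agpat2 the 95% interval spans more than a 2-fold change in either direction. The exact permutation test on CPM gave p = 0.1 for Agpat3, Lpin1, Lpin2, Mogat1 and Dgat2, two-sided, the smallest that 3 libraries against 3 allow.

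**Figure D4:**
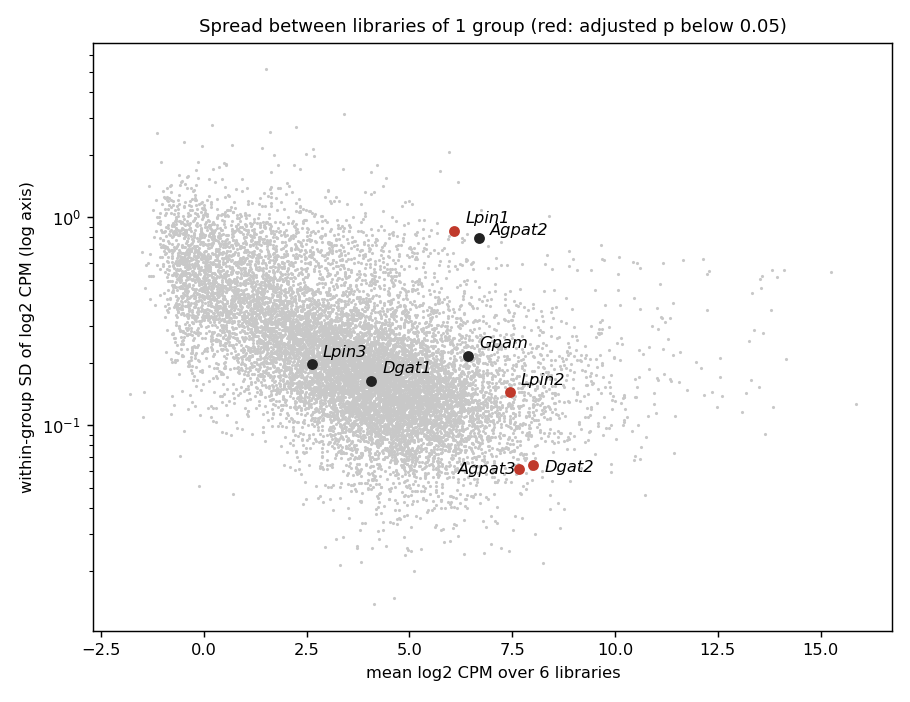
Within-group SD of log2 CPM (vertical log axis) against mean log2 CPM over the 6 libraries (horizontal axis) for all tested genes in grey, with the 8 tested genes marked, red where the adjusted p was below 0.05. Lpin1 and Agpat2 lie far above genes of their level, and Agpat3 and Dgat2 below most of them.

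For each called gene, the tested genes with the most similar profile over the 6 libraries were listed, by the root mean square (RMS) difference of centred log2 CPM among 11765 genes. For Lpin2 these were Abcc3 (RMS 0.07), Slc16a7 (0.10) and Sulf2 (0.10), against a median of 0.82 over all genes searched. For Lpin1 the nearest were farther away, namely Sult1c2 (0.41), Dsg1c (0.42) and Rec114 (0.43), with a median of 1.48. Apeh and Hspb8 were near to Dgat2 (0.04 and 0.04, median 0.37), and Mtrr, Nelfcd and Eif4b to Agpat3 (0.01, 0.03 and 0.03, median 0.31). With 6 libraries in 2 groups, such a distance takes in both the group difference and the spread within groups. The part of each was not tested.

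The other genes around the pathway were read from 5 lists with 93 genes in all, of which 84 were tested, 30 were called higher and 10 lower. These calls made up 35.7% and 11.9% of the 84, against 12.1% and 11.2% of all tested genes. The share called lower was thus close to that of all tested genes. The median log2 fold change of these 84 genes was 0.35, against 0.02 over all tested genes. The lists are described by their counts, with no set test. Exons of Gpat3 and Cebpb share 1052 of 3502 and 312 of 1504 bases with genes on the opposite strand, so their values are uncertain. Other genes named below share less of their exon length in this way, such as Lipe (15.6%), Slc27a2 (11.2%) and Acsl1 (9.91%). Chkb, a gene of phospholipid synthesis called higher, shares 50.7% with a gene on the same strand. In each list the 4 called genes with the largest fold change are named, and Gpat4, Slc27a2, Pnpla2, Plin5, Ces3a, Aadac, Fabp4, Lipe, Cnep1r1, Ctdnep1, Srebf1, Mttp and Apob were added after their values were seen.

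In the list of the other acyltransferases of the first steps and of the genes that supply acyl-CoA and glycerol 3-phosphate, 7 of 16 tested genes were called higher and 2 lower, with a median of 0.52. These counts are 43.8% and 12.5% of the list, against 12.1% and 11.2% of all tested genes. Acsl1, which activates long-chain fatty acids, was at 445, 407 and 501 CPM in HKO 1, 2 and 3 and at 154, 169 and 285 CPM in WT 1, 2 and 3 (log2 fold change 1.16, adjusted p = 0.0108). Its relative Acsl3 went the other way, at 13.3, 16.3 and 13.9 CPM against 49.8, 35.6 and 41.8 CPM (-1.55, adjusted p = 0.000678). In both genes the groups were apart. Glycerol kinase, Gk, rose by 1.08 (SE 0.13), Gpat3 by 1.10 (SE 0.16) and Slc27a2, a fatty acid transporter and very long-chain acyl-CoA synthetase, by 1.05 (SE 0.15). The count of lower genes fell from 2 to 1 without HKO 1, HKO 3, WT 1 or WT 3.

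Of 14 tested enzymes of the list that make or use phosphatidate and diacylglycerol outside the lipins, 2 were called higher and 2 lower, with a median of 0.11. Each count is 14.3% of the list, close to the 12.1% and 11.2% of all tested genes. Dgka, a diacylglycerol kinase, which runs opposite to the lipin step, rose by 1.12 on the log2 scale (SE 0.15). Pld1, a phospholipase that releases phosphatidate, had a log2 fold change of -0.74 (SE 0.13), and Plpp5, a lipid phosphate phosphatase, one of -0.59 (SE 0.10). Dgkd, another diacylglycerol kinase, was at 0.36 (SE 0.10, adjusted p = 0.0398). Its call was lost without HKO 1, HKO 3, WT 1, WT 2 or WT 3 (adjusted p 0.0699 to 0.134), without the filter (0.0662) and by DESeq2 (0.0772).

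Among known regulators of the lipins, 3 of 14 tested were called higher and 2 lower, with a median of 0.23, where 12.1% of all tested genes were called higher and 11.2% lower. DESeq2 called 5 higher and 3 lower. Cebpb, a transcription factor of the acute phase and of regrowing liver, was at 78.8, 65.4 and 52.4 CPM in HKO 1, 2 and 3 and at 34.5, 22.4 and 24.7 CPM in WT 1, 2 and 3 (log2 fold change 1.27, adjusted p = 0.00474). Ppargc1a, the partner coactivator of lipin 1, was at 14.7, 15.2 and 20.4 CPM against 6.17, 10.8 and 8.60 CPM (0.97, adjusted p = 0.0195). Its call was lost without HKO 3 or WT 3 (adjusted p 0.0626 and 0.0721). Nr3c1, the glucocorticoid receptor, was at -0.49 (SE 0.12), and lost its call without WT 1, WT 2 or WT 3 (adjusted p 0.0564, 0.0748 and 0.0825). Mtor, the kinase that phosphorylates lipin 1, was at 0.49 (SE 0.14), and lost its call without HKO 3, WT 1, WT 2 or WT 3 (adjusted p 0.0895, 0.0993, 0.0910 and 0.1305).

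The phosphatase complex that dephosphorylates lipins has a catalytic subunit, Ctdnep1, and a regulatory subunit, Cnep1r1. Ctdnep1 mRNA was not called (0.03, SE 0.12, adjusted p = 0.900), and Cnep1r1 mRNA was at -0.49 (SE 0.14, adjusted p = 0.0418). The difference between these folds was not tested. The Cnep1r1 call was lost without HKO 1, HKO 3, WT 1, WT 2 or WT 3 (adjusted p 0.0546 to 0.1104) and without the filter (0.0543). Srebf1, a regulator of lipid synthesis genes, was not called (-0.87, SE 0.28, adjusted p = 0.0577), with WT 1 at 169 CPM above the other WT libraries at 73.2 and 90.9. WT 1 was thus the highest WT library for Srebf1 and the lowest for Lpin1. In this list the count of higher genes was 1 without HKO 3 or WT 3, and that of lower genes 0 without WT 1 or WT 3 and 1 without HKO 1, HKO 3 or WT 2.

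Phospholipid synthesis competes with the lipins and Dgat enzymes for substrate. Of 18 tested genes 7 were called higher and 2 lower, with a median of 0.23. These counts are 38.9% and 11.1% of the list, against 12.1% and 11.2% of all tested genes. Pcyt1a, the rate-limiting enzyme of phosphatidylcholine synthesis, was at 26.0, 29.7 and 47.1 CPM in HKO 1, 2 and 3 and at 70.7, 83.2 and 69.2 CPM in WT 1, 2 and 3 (log2 fold change -1.12, adjusted p = 0.00978). Chpt1, which joins the choline group to diacylglycerol, rose by 0.99 (SE 0.12), and Etnk2, an ethanolamine kinase, by 1.05 (SE 0.12). Within the choline route, Pcyt1a fell and Chpt1 rose. Chka, a choline kinase, was at -0.69 (SE 0.21, adjusted p = 0.0477), and lost its call without HKO 1, HKO 3, WT 1 or WT 3 (adjusted p 0.1207, 0.0957, 0.1047 and 0.1146). The count of higher genes was 4 without WT 2 or WT 3, and that of lower genes 1 without HKO 1, WT 1 or WT 3.

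Genes of triglyceride storage and breakdown had the largest differences of the 5 lists: 11 of 22 tested genes were called higher and 2 lower, with a median of 0.58. Of all tested genes, 12.1% were called higher and 11.2% lower. The 2 genes called lower are 9.09% of the list, so the share called lower was not above that of all tested genes. Cidec, a protein that enlarges lipid droplets, was at 33.7, 23.8 and 25.1 CPM in HKO 1, 2 and 3 and at 2.33, 1.01 and 0.732 CPM in WT 1, 2 and 3 (log2 fold change 4.32, SE 0.36). Plin4, a droplet coat protein, was at 23.4, 24.5 and 24.0 CPM against 3.56, 3.59 and 3.17 CPM (2.80, SE 0.12). Both were far apart between groups. The droplet coat protein Plin5 rose by 1.61 (SE 0.14).

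Hydrolases in this list were called in both directions. Pnpla2, the first lipase of the droplet, rose by 1.53 (SE 0.13), Mgll, the monoacylglycerol lipase, by 1.68 (SE 0.11) and Ces1d, a carboxylesterase of triglyceride turnover, by 1.64 (SE 0.11). The 2 genes of the list called lower were Ces3a, another carboxylesterase (-0.45, SE 0.13, adjusted p = 0.0408), and Aadac, arylacetamide deacetylase (-0.34, SE 0.10, adjusted p = 0.0457). Without the filter neither was called (adjusted p 0.0665 and 0.0814). Ces3a kept its call without HKO 1 (adjusted p 0.0386) and lost it without any other library (0.0597 to 0.1289), and Aadac lost it without each of the 6 (0.0529 to 0.1627). Mttp and Apob, which serve export, were not called: Mttp, which loads lipid onto lipoproteins, was at -0.01 (SE 0.09, 95% interval -0.26 to 0.23), and Apob, their structural protein, at 0.08 (SE 0.39, 95% interval -1.01 to 1.16). The count of lower genes in this list was 0 without HKO 3, WT 1 or WT 2 and 1 without HKO 1, HKO 2 or WT 3. Without HKO 2 or WT 3 the gene counted was neither Ces3a nor Aadac, so it was not among the 2 named above. The same held for the 1 gene called lower without the filter, and DESeq2 called 3 lower. 

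Markers of fat cells were read beside this list. Of 10 adipocyte markers, Adipoq, Lep and Retn had no count in any library, 6 stayed below 1 CPM throughout, and the sums were 65.7 to 135 CPM in HKO and 96.5 to 222 in WT. Car3, also a gene of hepatocytes, made up most of each sum, at 44.3 to 90.4 CPM in HKO and 80.7 to 204 CPM in WT. Fabp4, which endothelial cells also express, was at 8.22, 28.4 and 6.47 CPM in HKO 1, 2 and 3 and at 5.22, 4.33 and 4.27 CPM in WT 1, 2 and 3. The groups did not overlap, and the difference was not called (log2 fold change 1.63, SE 0.54, adjusted p = 0.0616), but it was called without the filter (0.0425), without HKO 2 (0.67, adjusted p = 0.0419), without HKO 3 (1.98, adjusted p = 0.0349) and by DESeq2 (0.0038). Lipe, hormone-sensitive lipase, was called higher (0.38, SE 0.11, adjusted p = 0.0464), a call lost without each of the 6 libraries (0.0880 to 0.1418), without the filter (0.0871), with DESeq2 size factors (0.0507) and by DESeq2 (0.1202). The part of these markers in the list's differences was not tested. Of 8 skeletal muscle markers, all stayed below 1 CPM.

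**Figure D5:**
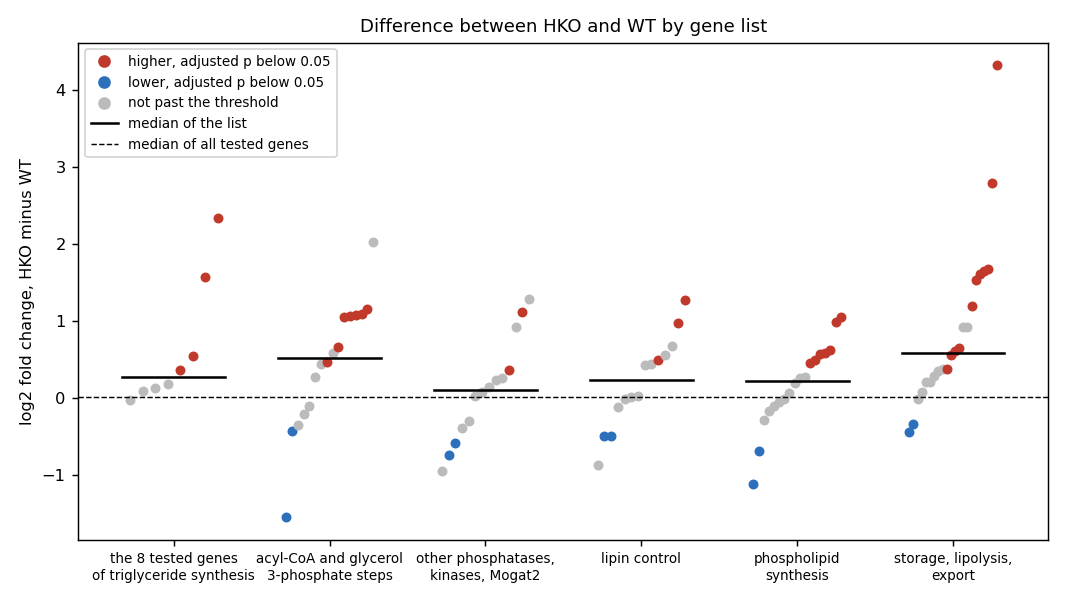
Log2 fold change of HKO minus WT (vertical axis) of each tested gene, by list (horizontal axis), coloured where the adjusted p was below 0.05, with the median of each list as a solid line and that of all tested genes (0.02) as a dashed line. The storage, lipolysis and export list reaches highest, with Cidec at 4.32, and each list but the first holds genes called lower.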

How the data were processed

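RNA-seq libraries of 3 HKO and 3 WT samples were analysed. The authors deposited 1 table with raw read counts and FPKM per gene and library, per the file headers. Per the submitters' processing notes, HISAT2 2.0.4 and StringTie 1.3.0 were used with mm10 and GRCm38.p4, and their roles and settings are not given in the sources used here. Counts were tested with edgeR 4.0.16 in R 4.3.3 (filterByExpr, TMM, quasi-likelihood F-test without a block, Benjamini-Hochberg adjustment over 12556 genes). The SE was obtained as |log2 fold change| over √F. The 95% intervals of log2 fold changes span the SE times a t quantile with 4 degrees of freedom on either side. The edgeR test uses other degrees of freedom. Alternatives were DESeq2 1.42.0 or its size factors, no filter, no mitochondrial genes, a replicate block, each library left out, and other gene lengths. Coordinates are those of the deposited table, exon lengths come from GENCODE M21 and upstream sequences from RefSeq. The genes and lists were chosen with earlier results of these data known. All 9 genes are named, with Sox9, the 4 called genes of each list with the largest fold change and the 3 nearest profiles of each called gene, of which 1 is not reported here. Of 184 list entries, 183 were matched, by symbol or by an older symbol. Gpat3 is listed as Agpat9 in the deposited data, and Plpp5 as Ppapdc1b.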

Additional observations from a re-analysis of the deposited data

How the results depend on the processing

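Among the 9 genes, 85 of 93 refits kept the direction and the side of the threshold. Agpat3 lost its call in 5, one of them with a replicate block (0.36, adjusted p = 0.0696), Agpat2 turned to 0.31 without HKO 2 and 0.55 without WT 3, and Lpin3 to -0.071 without HKO 2. With 1 library left out, Agpat2 ranged from -0.33 to 0.55 and Lpin3 from -0.071 to 0.18. The cause was not tested. Of 220 refits of the 20 genes named by rule in the lists, 23 lost the call. The numbers of genes called in the whole table ranged from 722 to 1589 (higher) and from 682 to 1546 (lower) with 1 library left out, against 1516 and 1401. These fits hold fewer samples. For the list genes called lower (10), that range was 4 to 9. With other lengths (longest transcript, exon union), chosen after seeing the data, the mean share of Lpin1 was 35.2% and 39.7% in HKO and 21.9% and 24.3% in WT, against 60.3% and 41.5%. That of Lpin2 was 62.6% and 56.4% in HKO and 71.2% and 63.2% in WT, and Lpin3 in HKO was at 3.96% with the exon union. The log2 ratio of Lpin1 to Lpin2 was -0.84 and -0.51 in HKO and -1.84 and -1.52 in WT, against 0.70 and -0.31. With 1 library left out, the WT ratio ranged from -0.66 to 0.27. That of Dgat2 to Dgat1 was 3.89 and 4.14 in HKO and 3.47 and 3.72 in WT, against 5.44 and 5.02. Samples of the same replicate number did not deviate together (r = -0.002, 0.002 and 0.072), and with the replicate block 1245 genes were called higher and 1115 lower, of the 9 genes 3 higher and of the list genes 5 lower. Dgkd, Mtor, Chka, Cnep1r1, Ces3a, Aadac, Lipe and Sox9 were not called in that fit (adjusted p 0.0533 to 0.106). Depth limits Mogat1 most, with 32 counts in HKO and 8 in WT.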
